A study of Homo sapiens with 12 samples.

Results

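NRF2, encoded by NFE2L2, is the transcription factor that drives much of the antioxidant response, and 10 genes of its pathway were followed here. They were NFE2L2 itself, its inhibitor KEAP1, and 8 genes commonly used as readouts of the response: HMOX1, NQO1, GCLC, GCLM, GSR, TXN, TXNRD1 and PRDX1. The genes were chosen by name for their place in the pathway from the 16383 genes in the deposited table, and 10 of 10 passed the filter on low values (a mean of at least 10 normalized counts).

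The study sequenced poly(A) RNA of IMR90, an established human cell line of fetal lung fibroblasts, labelled WT. Proliferating cells received no treatment. The other cells received 20 Gy of radiation over 10 min, which drives these fibroblasts into senescence, a lasting arrest of the cell cycle. From then on they were given DMSO, the solvent, or 2 µM palbociclib, which inhibits the cell cycle kinases CDK4 and CDK6, or 2 µM ruxolitinib, which inhibits the Janus kinases JAK1 and JAK2. The agents were added on days 4, 6, 8 and 10, with harvest of all irradiated cells on day 11. Each of the 4 groups had 3 libraries, named by their library numbers: A125 to A127 for proliferating cells, A116 to A118 for DMSO, A119 to A121 for palbociclib and A122 to A124 for ruxolitinib. No proliferating cells were given an inhibitor, and all cells came from a single line.

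In unstressed cells, KEAP1 holds NRF2 in the cytoplasm and hands it to the CUL3 and RBX1 ubiquitin ligase, so that the protein is made and destroyed continuously. Oxidants and electrophiles modify cysteines of KEAP1, NRF2 escapes degradation, pairs with a small MAF protein in the nucleus and binds antioxidant response elements near its target genes. BACH1 competes for many of the same elements and keeps HMOX1 low until heme releases it. Because this control acts mostly on the protein, the RNA levels of NFE2L2 and KEAP1 do not measure NRF2 activity. In fibroblasts, radiation and senescence are both associated with higher levels of reactive oxygen species.

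The short core of the antioxidant response element, TGACNNNGC, and a longer form in which that core is followed by A were searched on both strands in the 1000 bases before the start of each gene in the RefSeq promoter table (GRCh38). Matches are shown because they are the sequence through which NRF2 is known to reach its targets. In each line below the motif is in capitals between 10 flanking bases on each side, read 5′ to 3′ on the strand named. NQO1 carried the longer form at chr16:69726996-69727025 on the minus strand, which is the strand of the gene, beginning 455 bases before the start. GCLM carried it at chr1:93909446-93909475 on the plus strand, opposite to the gene, 35 bases before the start. For GCLC the match lay at chr6:53545953-53545982 on the plus strand, opposite to the gene, 871 bases before the start. Only the short core was found for TXN, at chr9:110257070-110257098 on the plus strand, opposite to the gene, 581 bases before the start. For TXNRD1 it lay at chr12:104215670-104215698 on the plus strand, that of the gene, 99 bases before the start.
NQO1: gcagtcacagTGACTCAGCAgaatctgagc
GCLM: tggaagacaaTGACTAAGCAgaaatcgtag
GCLC: aaatatgtgtTGACAGAGCAatgacctgtc
TXN: tgctccagctTGACACAGCggtttagtgc
TXNRD1: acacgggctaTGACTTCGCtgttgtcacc
Of the 7 genes searched, 5 held the short core and 3 the longer form. Among all 15842 promoters searched the same way, 32.5% held the short core and 9.39% the longer form. These letters did not occur in the windows of NFE2L2 and KEAP1. HMOX1 and PRDX1 had no entry in the table and GSR was not searched. A match describes the letters only and was not linked to binding in these cells.

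Over the listed genes the libraries held 14106799 to 21762412 reads. Library A126 stood apart from the other proliferating libraries and A120 from the other palbociclib libraries: the chi-square per degree of freedom between replicates was 11.9 and 17.1 for the pairs with A126 and 13.6 and 25.1 for those with A120, against 1.98 to 6.43 for all other pairs. Results that changed without either library are given with that value. CDKN1A, a marker of arrest, averaged 3389 normalized counts in proliferating cells and 29150 with DMSO, and the proliferation marker MKI67 13062 and 1011, in the direction that the labels give. All 10 fibroblast markers were present in every group. Their summed level differed between groups, at 822420 to 854897 in proliferating cells, 408919 to 419590 with DMSO, 651681 to 683887 with palbociclib and 515852 to 520021 with ruxolitinib. Markers of epithelial cells, of endothelial cells and of leukocytes each summed to at most 46.5, 50.4 and 34.2 normalized counts in any library. The labels do not say that the libraries of a group came from separate cultures, so p-values measure the spread between these libraries, which may be technical. In bulk RNA, a change in the share of cells that express a gene cannot be told apart from a change in RNA per cell.

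Values are the authors' normalized counts, and differences are limma estimates on log2(normalized count + 1), adjusted over 11242 tested genes by the Benjamini-Hochberg method. A gene was called higher or lower at an adjusted p under 0.05.

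**Figure D1:**
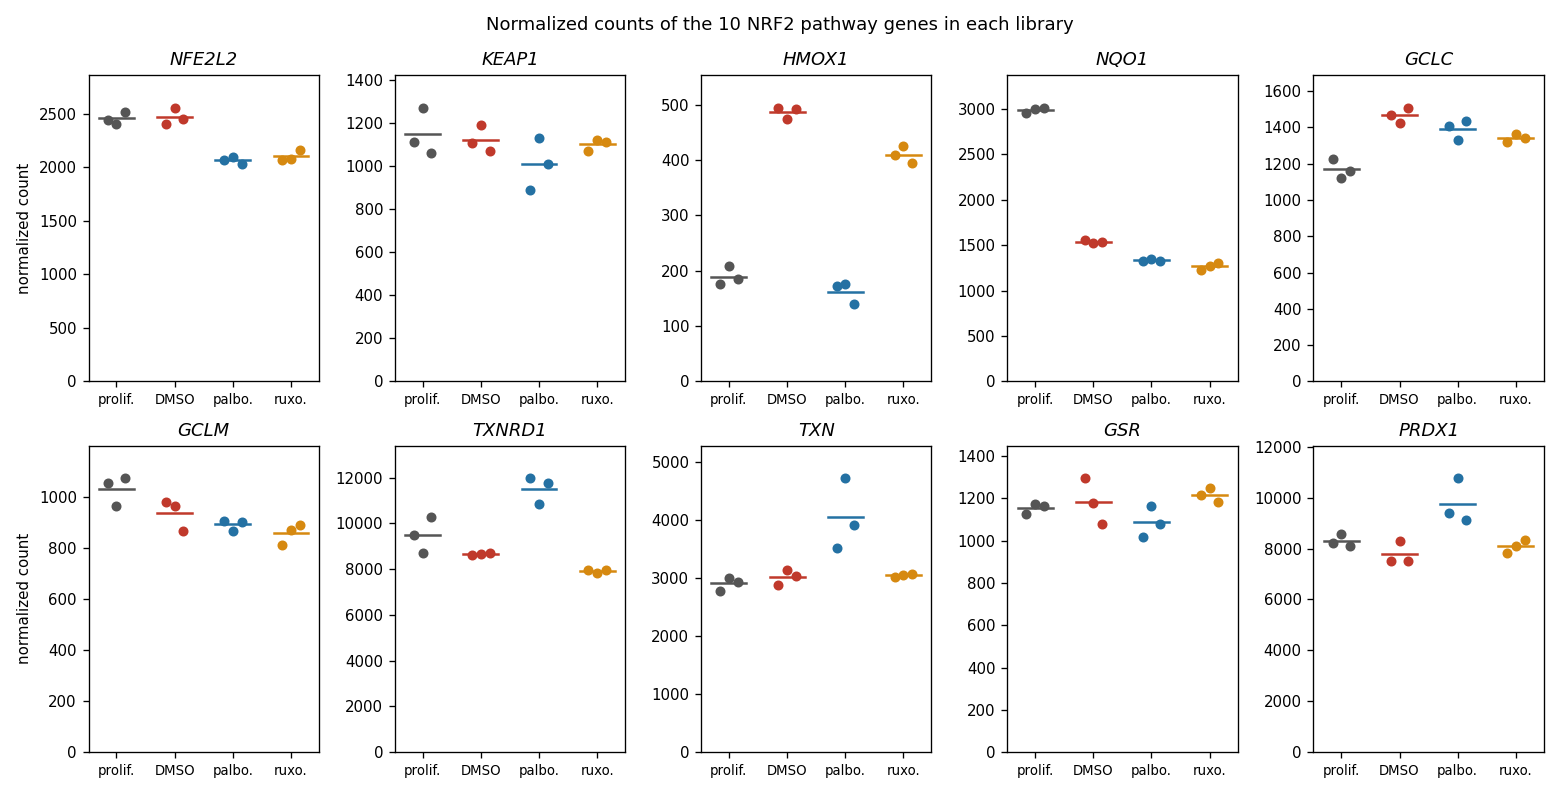
Normalized counts (y axes, from 0) of the 10 genes in each of the 12 libraries (points) with the mean of each group (bars), for proliferating cells and irradiated cells given DMSO, palbociclib or ruxolitinib. HMOX1 is high in the DMSO and ruxolitinib libraries, NQO1 is low in all irradiated libraries, and TXN, TXNRD1 and PRDX1 are highest with palbociclib.

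The comparison of irradiated DMSO cells with proliferating cells asked how the pathway differed after irradiation. HMOX1 and GCLC were higher, NQO1 was lower, and the other 7 of the 10 genes were not called. Among all tested genes 33.0% were called higher and 39.3% lower, 72.4% in all, against 3 of these 10. This balance depended on the scaling. With every library brought to the same total, 5 of the 10 genes were higher and 1 lower. Of all 11242 genes, 5273 were then higher and 2970 lower, against 3714 and 4420. With edgeR and with DESeq2 on recovered reads, 2 of the 10 genes were higher and 1 lower. All genes gave 4103 higher and 4047 lower with edgeR, and 4029 and 3981 with DESeq2. The groups did not overlap for 4 of the 10 genes, against 75.1% of all tested genes. The median log2 fold change was -0.01 over the 10 genes and -0.05 over all tested genes.

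Palbociclib was compared with DMSO to ask what CDK4/6 inhibition changed in irradiated cells. TXN, TXNRD1 and PRDX1 were higher with palbociclib, HMOX1, NQO1 and NFE2L2 were lower, and 4 genes were not called. Among all tested genes 26.0% were called higher and 22.3% lower, 48.3% in all. At the same total 1 of the 10 genes was higher (TXNRD1) and 7 lower, and the counts over all genes turned from 2927 higher and 2505 lower to 940 and 5170. The groups did not overlap for 6 of the 10 genes, against 54.8% of all genes. The median log2 fold change was -0.10 over the 10 genes and 0.02 over all genes.

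With ruxolitinib, NFE2L2 and NQO1 were lower than with DMSO and the other 8 genes were not called. Few genes were called in this comparison, 1.10% higher and 3.42% lower, or 4.52% in all, against 2 of the 10. The groups did not overlap for 5 of the 10 genes, against 31.9% of all genes. The median log2 fold change was -0.13 over the 10 genes and -0.0028 over all genes. Both inhibitor comparisons use the same DMSO libraries, so their values are given side by side and their likeness is not used as a result. Taking the inhibitors directly against each other, TXN, TXNRD1 and PRDX1 were higher and HMOX1 lower with palbociclib, 4 of 10 calls where 40.4% of all genes were called (22.8% higher and 17.6% lower). Scaled to the same total, that split became 1 higher and 6 lower, and for all genes 2561 higher and 1983 lower became 847 and 4531. The inhibitor groups did not overlap for 6 of the 10 genes, against 51.8% of all genes.

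Against proliferating cells, palbociclib gave 4 of the 10 genes called higher (TXN, TXNRD1, PRDX1 and GCLC) and 4 lower (NFE2L2, HMOX1, NQO1 and GCLM). Among all genes 35.2% were higher and 38.6% lower, 73.8% in all, and the groups did not overlap for 8 of the 10 against 70.9% of all genes. Ruxolitinib gave 2 higher (HMOX1 and GCLC) and 4 lower (NFE2L2, NQO1, GCLM and TXNRD1), against 32.6% and 39.5% of all genes, 72.2% in all. Scaled to the same total, the ruxolitinib split became 5 higher and 1 lower, with TXN (0.27), GSR (0.28) and PRDX1 (0.17) also called higher, and 5034 of all genes were higher and 3137 lower, against 3670 and 4443. At the same upper quartile it was 4 higher and 1 lower, and over all genes 4771 higher and 3345 lower. The groups did not overlap for 8 of the 10 there, against 76.2% of all genes. These comparisons and the DMSO one share the proliferating libraries.

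**Figure D2:**
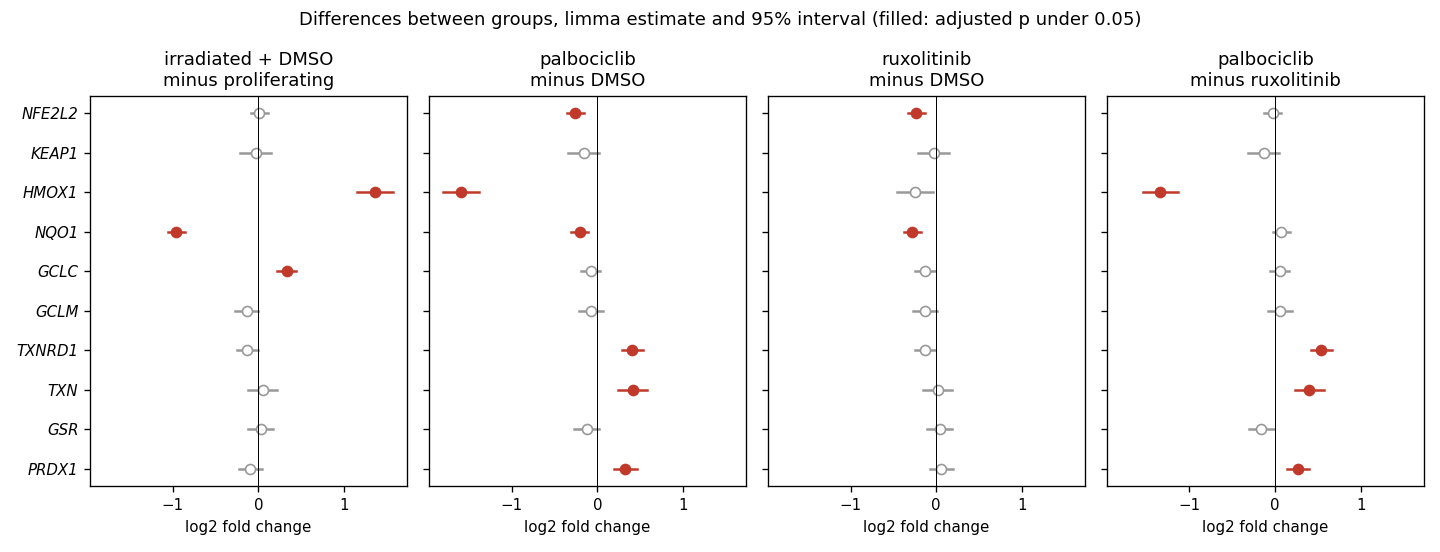
Log2 fold change (x axes) of each gene with its 95% interval in 4 comparisons, filled where the adjusted p was under 0.05. HMOX1 has the estimates farthest from 0, at 1.36 after irradiation and -1.59 with palbociclib, and KEAP1, GCLM and GSR have no filled point.

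NFE2L2 (Entrez gene 4780, chr2:177230303-177264727, minus strand) read 2444, 2408 and 2519.6 normalized counts in the proliferating libraries, 2407, 2557 and 2450.2 with DMSO, 2064, 2097 and 2033 with palbociclib, and 2071, 2073 and 2161 with ruxolitinib. The proliferating and DMSO libraries overlapped, and all 6 inhibitor libraries lay below all 6 of those. DMSO differed from proliferating cells by 0.01 on the log2 scale (95% interval -0.09 to 0.11, adjusted p 0.879). Relative to DMSO, NFE2L2 fell by 0.26 with palbociclib (SE 0.05, adjusted p 0.000322) and by 0.23 with ruxolitinib (SE 0.05, adjusted p 0.00740). The ruxolitinib call was lost without A117 (-0.21, adjusted p 0.0506) or without A122 (-0.22, adjusted p 0.0508). The inhibitors themselves differed by -0.03 (interval -0.12 to 0.07, adjusted p 0.697). Palbociclib was, however, called lower than ruxolitinib at the same total (-0.23, adjusted p 0.000642) and under quantile normalization (-0.16, adjusted p 0.0120). Both inhibitor groups were also called lower than proliferating cells, at -0.25 for palbociclib (adjusted p 0.000157) and -0.23 for ruxolitinib (adjusted p 0.000428).

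The level of NFE2L2 relative to proliferating cells depended on the scaling. With every library brought to the same total, DMSO was called 0.24 higher than proliferating cells (adjusted p 0.000151), and ruxolitinib was not called (-0.02, adjusted p 0.676). The palbociclib difference from DMSO was called under every alternative run, between -0.49 and -0.23. Some exonic sequence of NFE2L2 overlaps AGPS and HNRNPA3 in the annotation, and 5.92% of its 50-base words occur in another gene. AGPS averaged 1525 in proliferating cells, and 1094, 1144 and 1016 in DMSO, palbociclib and ruxolitinib cells. The part of shared reads in the NFE2L2 values was not tested.

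KEAP1 (Entrez gene 9817, chr19:10486125-10503356, minus strand), the sensor that marks NRF2 for degradation, read 1112, 1271 and 1059 in the proliferating libraries and 1106, 1192 and 1069.6 with DMSO. With palbociclib it read 886, 1131 and 1007, and with ruxolitinib 1069, 1123 and 1112. All groups overlapped, and A120, at 1131, was the highest palbociclib library. KEAP1 was not called in any of the 6 comparisons between groups. Against DMSO it differed by -0.16 with palbociclib (interval -0.34 to 0.02, adjusted p 0.133) and by -0.03 with ruxolitinib (interval -0.21 to 0.15, adjusted p 0.933). Without A120 the palbociclib difference was called against DMSO (-0.25, adjusted p 0.0185), ruxolitinib (-0.22, adjusted p 0.0386) and proliferating cells (-0.28, adjusted p 0.00505). Without A127 it was called against proliferating cells (-0.24, adjusted p 0.0279). KEAP1 at the same total was called lower with palbociclib than with DMSO (-0.39, adjusted p 0.00189) and than with ruxolitinib (-0.34, adjusted p 0.00614).

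HMOX1 (Entrez gene 3162, chr22:35381096-35394207, plus strand) encodes heme oxygenase 1, which breaks heme into biliverdin, iron and carbon monoxide. It read 175, 208 and 185 normalized counts in the proliferating libraries and 495, 474 and 493 with DMSO. The palbociclib libraries read 172, 175 and 139, and with ruxolitinib 409.7, 426 and 394. The lowest DMSO library was over 2 times the highest proliferating one, and the palbociclib libraries lay just below the proliferating ones. The level rested on 155 to 531 reads per library, the fewest of the 10 genes.

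HMOX1 rose 2.57-fold with irradiation and DMSO (log2 fold change 1.36, SE 0.10, adjusted p 4.34e-09). It was 3.01-fold lower with palbociclib than with DMSO (log2 fold change -1.59, interval -1.80 to -1.38, adjusted p 4.64e-09). With ruxolitinib HMOX1 remained above proliferating cells, by 1.11 (2.16-fold, adjusted p 4.57e-08). The 3 ruxolitinib libraries lay below all 3 DMSO libraries, but the difference of -0.25 was not called (interval -0.45 to -0.04, adjusted p 0.203). Fitted on those 2 groups alone, the same difference was called (adjusted p 0.00784). Palbociclib and ruxolitinib differed by -1.34 (interval -1.55 to -1.13, adjusted p 4.41e-08). Of these, the 4 calls kept their direction and stayed called under every alternative run.

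Against proliferating cells, HMOX1 was called 0.23 lower with palbociclib at the threshold (log2 fold change -0.23, interval -0.43 to -0.02, adjusted p 0.0443). That call was lost in 16 of 23 alternatives. Without A121, the lowest palbociclib library, the difference was -0.12 (adjusted p 0.239), and without A126, the highest proliferating library, -0.16 (adjusted p 0.174). Leaving out A127 gave -0.24 (adjusted p 0.0604). Without any of A116, A117, A118, A122, A123 or A124, libraries of the other groups, the estimate was unchanged at -0.23 and its adjusted p was 0.0547 to 0.0585.

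NQO1 (Entrez gene 1728, chr16:69709401-69726560, minus strand) encodes a quinone reductase and is among the most used indicators of NRF2 activity. It read 2956, 3003 and 3014 in the proliferating libraries and 1555, 1524 and 1534 with DMSO. With palbociclib it read 1327, 1343 and 1327, and with ruxolitinib 1225, 1275 and 1304. All 9 irradiated libraries were well below the proliferating ones, and the spread within each group was small. NQO1 fell 1.94-fold with irradiation and DMSO (log2 fold change -0.96, SE 0.05, adjusted p 3.79e-11). It was lower again with each inhibitor than with DMSO, by -0.21 with palbociclib (adjusted p 0.00177) and by -0.28 with ruxolitinib (adjusted p 0.00162). The inhibitors did not overlap but were not called different (0.07, interval -0.03 to 0.17, adjusted p 0.227). At the same total, however, palbociclib was called lower than ruxolitinib (-0.13, adjusted p 0.0308).

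All of the NQO1 calls made under the authors' scaling were kept under every alternative run. The DMSO difference from proliferating cells ranged from -0.97 to -0.73, and the palbociclib difference from DMSO reached -0.43 at the same total. The summed fibroblast markers were also lower in every irradiated group, but THY1 and DCN went the other way. THY1 read 8552 to 9050 in proliferating cells and 9575 to 10271 with DMSO. DCN read 11609 to 12044 and 12686 to 13717, and the other fibroblast markers were lower with DMSO. The part of these markers in the NQO1 difference was not tested. Of the 50-base words of the NQO1 transcript, 21.0% also occur in other genes, so reads from those stretches could be counted elsewhere or not at all.

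With DMSO and with ruxolitinib, HMOX1 and NQO1 were called in opposite directions against proliferating cells. The ratio of their normalized counts within a library, which no scaling of libraries can move, was 0.0633 ± 0.0054 in proliferating cells (SD, n = 3). It was 0.317 ± 0.005 in the DMSO libraries, 0.122 ± 0.014 in the palbociclib ones and 0.324 ± 0.018 in the ruxolitinib ones. The proliferating libraries were lowest and the palbociclib libraries lay between them and the other 2 groups, without overlap. Each of those separations had an exact two-sided permutation p of 0.1, the smallest that 3 libraries against 3 allow, and 0.18 adjusted over 18 ratio comparisons. DMSO and ruxolitinib overlapped (exact permutation p 0.6, adjusted 0.771).

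Glutathione synthesis starts with glutamate-cysteine ligase, an enzyme of a catalytic subunit, GCLC, and a modifier subunit, GCLM. GCLC (Entrez gene 2729, chr6:53497341-53545101, minus strand) read 1229, 1120.1 and 1157 in the proliferating libraries and 1471, 1422 and 1509 with DMSO. The palbociclib libraries read 1405, 1330.0 and 1436, and with ruxolitinib 1320.1, 1362 and 1340.0. Every irradiated library was above every proliferating one. GCLC rose 1.26-fold with DMSO (log2 fold change 0.33, SE 0.05, adjusted p 5.14e-05), and was also called higher than proliferating cells with palbociclib (0.25, adjusted p 0.000599) and with ruxolitinib (0.20, adjusted p 0.00372). These 3 calls were kept under every alternative run. Neither inhibitor was called different from DMSO, at -0.08 for palbociclib (interval -0.19 to 0.04, adjusted p 0.250) and -0.13 for ruxolitinib (interval -0.24 to -0.01, adjusted p 0.244). Palbociclib was, however, called lower than DMSO at the same total (-0.30, adjusted p 0.000249), the same upper quartile (-0.14, adjusted p 0.0432) and under quantile normalization (-0.14, adjusted p 0.0353), and ruxolitinib when only those 2 groups were fitted (adjusted p 0.0352).

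GCLM (Entrez gene 2730, chr1:93885199-93909430, minus strand) read 1053, 965 and 1071 in the proliferating libraries and 979.9, 962 and 867 with DMSO. With palbociclib it read 906, 866 and 902, and with ruxolitinib 811, 869 and 888. The DMSO libraries overlapped the proliferating ones, while all inhibitor libraries were below them. The DMSO difference was not called (-0.14, interval -0.28 to 0.0013, adjusted p 0.0696), but it was without A126 (-0.18, adjusted p 0.0245). GCLM was called lower than proliferating cells with palbociclib (-0.21, adjusted p 0.00971) and with ruxolitinib (-0.27, adjusted p 0.00176). Both calls were lost when libraries were brought to the same upper quartile (-0.11 and -0.10, adjusted p 0.108 and 0.172). They were also lost under quantile normalization (-0.08 and -0.09, adjusted p 0.301 and 0.220). At the same total the ruxolitinib call was lost as well (-0.06, adjusted p 0.392).

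The ratio of GCLC to GCLM was 1.14 ± 0.05 in the proliferating libraries (SD, n = 3), and 1.57 ± 0.15, 1.56 ± 0.03 and 1.57 ± 0.06 in those given DMSO, palbociclib and ruxolitinib. Each irradiated group lay above the proliferating libraries without overlap (exact permutation p 0.1, adjusted 0.18), and the irradiated groups overlapped one another. The ratios were chosen after the values were seen.

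GSR (Entrez gene 2936) is glutathione reductase, which turns oxidised glutathione back into its reduced form. It read 1128, 1176 and 1166 in the proliferating libraries, 1295, 1179 and 1079 with DMSO, 1017, 1165 and 1081 with palbociclib, and 1214, 1249 and 1184 with ruxolitinib. The DMSO libraries spanned most of that range, and no comparison of GSR was called under the authors' scaling. The interval of the DMSO difference from proliferating cells was -0.12 to 0.18 around 0.03 (adjusted p 0.702), but DMSO was called higher at the same total (0.26, adjusted p 0.00430), the same upper quartile (0.18, adjusted p 0.0326) and under quantile normalization (0.19, adjusted p 0.0277). The largest estimate, palbociclib against ruxolitinib, was -0.16 (adjusted p 0.0713). That difference was called without A120 (-0.21, adjusted p 0.0239), with edgeR (adjusted p 0.0365) and with DESeq2 (adjusted p 0.0374). Palbociclib was also called lower than DMSO without A118 (-0.19, adjusted p 0.0467) and at the same total (-0.35, adjusted p 0.000872).

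Thioredoxin, encoded by TXN, reduces disulfides in proteins, thioredoxin reductase 1, encoded by TXNRD1, restores it with NADPH, and peroxiredoxin 1, encoded by PRDX1, spends it on hydrogen peroxide. These 3 genes had their highest means with palbociclib. TXN (Entrez gene 7295, chr9:110243810-110256507, minus strand) read 2779, 3008 and 2929 in the proliferating libraries and 2878, 3131 and 3031 with DMSO. The palbociclib libraries read 3518, 4715 and 3914, and with ruxolitinib 3018, 3047 and 3075. All palbociclib libraries were above all others, and A120 was the highest of them. TXN was 1.33-fold higher with palbociclib than with DMSO (log2 fold change 0.42, SE 0.08, adjusted p 0.000522), and 0.30 higher without A120 (adjusted p 0.000427). Ruxolitinib and DMSO differed by 0.02 (interval -0.15 to 0.19, adjusted p 0.956). DMSO and proliferating cells differed by 0.05 (interval -0.12 to 0.22, adjusted p 0.561), but DMSO was called higher at the same total (0.28, adjusted p 0.00485), the same upper quartile (0.21, adjusted p 0.0348) and under quantile normalization (0.21, adjusted p 0.0307).

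TXNRD1 (Entrez gene 7296, chr12:104215779-104350307, plus strand) read 9471, 8721 and 10280.4 in the proliferating libraries and 8625, 8663 and 8696 with DMSO. With palbociclib it read 11963, 10824 and 11754, and with ruxolitinib 7942, 7824 and 7964. The 4 groups did not overlap, running from ruxolitinib up through DMSO and proliferating cells to palbociclib. TXNRD1 was 1.33-fold higher with palbociclib than with DMSO (log2 fold change 0.41, SE 0.06, adjusted p 3.43e-05) and 1.45-fold higher than with ruxolitinib (0.54, adjusted p 2.92e-06). The latter was called under every alternative run. Ruxolitinib and DMSO differed by -0.13 (interval -0.25 to -0.01, adjusted p 0.279), which was called when only those groups were fitted (adjusted p 0.00250).

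DMSO was 0.13 below proliferating cells for TXNRD1 (log2 fold change -0.13, adjusted p 0.0552), a difference called without A126 (-0.19, adjusted p 0.00534) and, at the same -0.13, without A119 (adjusted p 0.0465) or A120 (adjusted p 0.0287). Ruxolitinib was called lower than proliferating cells (-0.26, adjusted p 0.000781), though not at the same total (-0.06, adjusted p 0.352).

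PRDX1 (Entrez gene 5052, chr1:45511051-45522890, minus strand) read 8204, 8589 and 8101 in the proliferating libraries and 7501, 8295 and 7521 with DMSO. The palbociclib libraries read 9419, 10757 and 9111, and with ruxolitinib 7815, 8116 and 8342. The palbociclib libraries were above all others, again with A120 highest, and the other 3 groups overlapped. PRDX1 was 1.25-fold higher with palbociclib than with DMSO (log2 fold change 0.33, SE 0.06, adjusted p 0.000539), and 0.25 higher without A120 (adjusted p 0.00103). Ruxolitinib and DMSO differed by 0.06 (interval -0.07 to 0.19, adjusted p 0.725). Exons of PRDX1 overlap those of MMACHC, and 36.2% of its 50-base words occur in MMACHC or a pseudogene, so its counts could be split. MMACHC itself was low, at 63.2 normalized counts with palbociclib and 73.4 with DMSO.

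The calls of these 3 genes with palbociclib depended on the scaling. Bringing libraries to the same total moved the median of all tested genes from 0.02 to -0.21 for palbociclib against DMSO, and from -0.05 to 0.18 for DMSO against proliferating cells. Each shift is common to all genes of its comparison. It lowered the log2 fold changes of palbociclib against DMSO and raised those of DMSO against proliferating cells. At the same total the palbociclib difference from DMSO was 0.19 for TXN (adjusted p 0.0557) and 0.10 for PRDX1 (adjusted p 0.190), while TXNRD1 remained called. With quantile normalization it was 0.13 for TXNRD1 (adjusted p 0.0883) and 0.04 for PRDX1 (adjusted p 0.587), while TXN remained called. With edgeR and DESeq2 on recovered reads, all 3 genes were called higher than with DMSO. Against ruxolitinib, PRDX1 was not called at the same total (0.07, adjusted p 0.399) or under quantile normalization (0.0083, adjusted p 0.928). TXN was not called against ruxolitinib at the same total (0.20, adjusted p 0.0518). Against proliferating cells, TXNRD1 (0.13, adjusted p 0.0667) and PRDX1 (0.13, adjusted p 0.0645) lost their calls under quantile normalization, while TXN kept its call throughout.

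**Figure D3:**
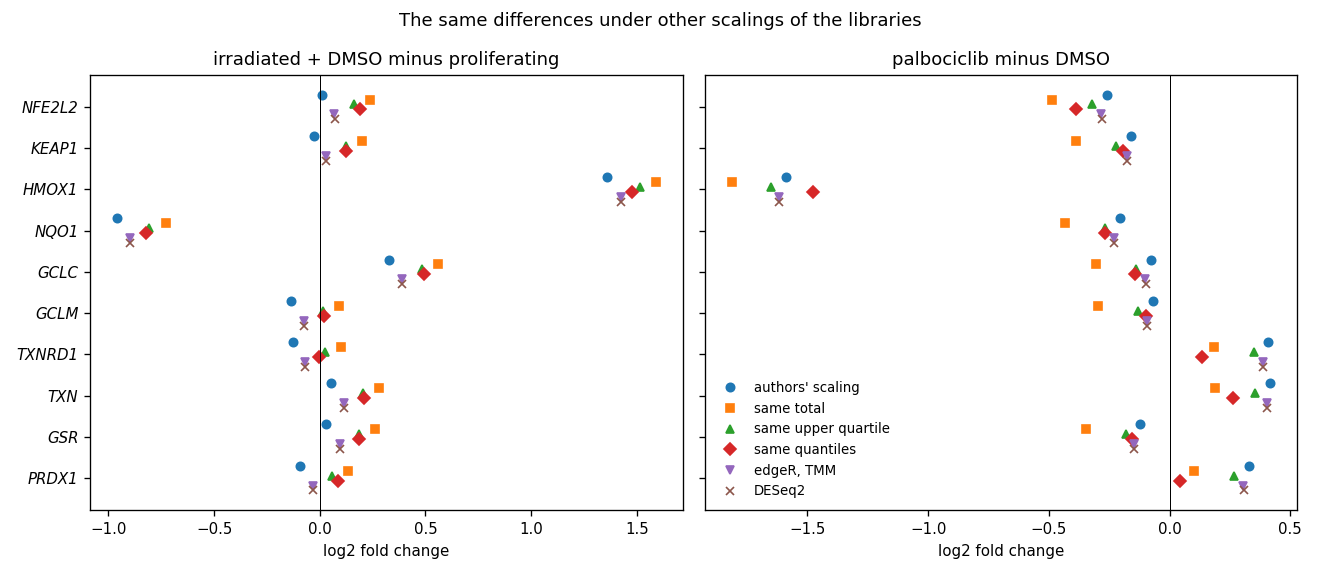
Log2 fold change (x axes) of the 10 genes under the authors' scaling, 3 other scalings, edgeR and DESeq2, for DMSO against proliferating cells and palbociclib against DMSO. Points for HMOX1, NQO1, GCLC, NFE2L2, TXN and GSR stay on one side of 0 in the left panel, and points of KEAP1, GCLM, TXNRD1 and PRDX1 fall on both sides there.

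Levels can be compared between genes only per length, here per kb of the MANE Select transcript. In proliferating cells PRDX1 was highest at 8781 normalized counts per kb, followed by TXN at 3942 and TXNRD1 at 2459. NQO1 came next at 1186 and NFE2L2 at 1004, then KEAP1 at 447, GSR at 381, GCLC at 309, GCLM at 211 and HMOX1 at 122. The order of the 3 thioredoxin pathway genes was the same in all 4 groups. NQO1 moved below NFE2L2 in every irradiated group, at 529 per kb against 844 with palbociclib. HMOX1 passed GCLM with DMSO (313 against 192) and with ruxolitinib (264 against 175), but not with palbociclib (104 against 183). In proliferating cells no neighbours in this order had overlapping ranges. With palbociclib the ranges of KEAP1, GSR and GCLC met (393, 358 and 367), so their order there is not beyond the spread. With DMSO the range of GSR (390.3) met those of KEAP1 (438) and GCLC (388), which did not meet each other.

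**Figure D4:**
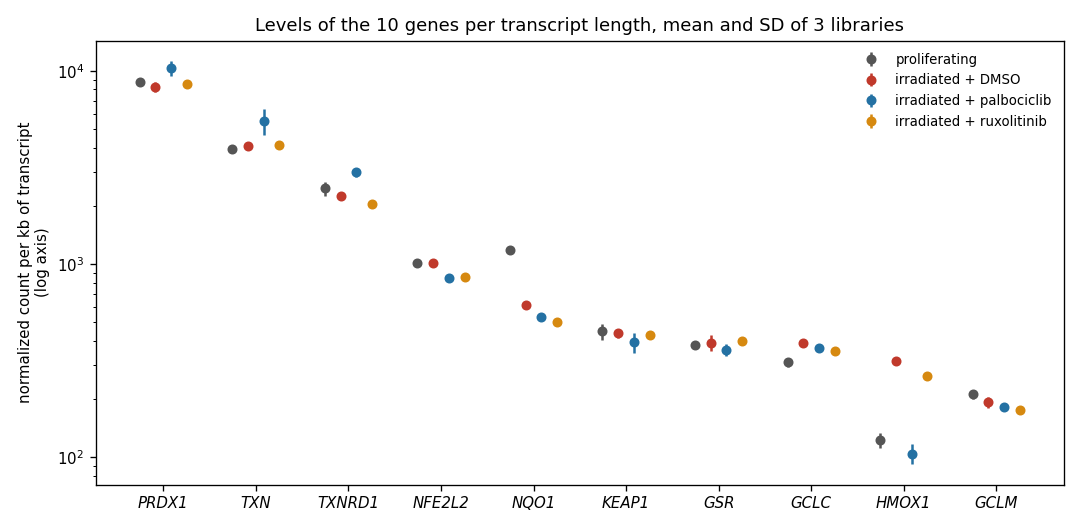
Normalized counts per kb of transcript (y axis, log scale) of the 10 genes in the 4 groups, as the mean (points) and SD (bars) of 3 libraries. PRDX1, TXN and TXNRD1 are highest in every group, and HMOX1 is lowest in proliferating and palbociclib cells.

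Over the 12 libraries, which share their groups and scaling, the members did not vary as a block. TXN and PRDX1 were the most alike (Pearson r 0.895 of log2 values), followed by NQO1 and GCLM (0.830), whereas HMOX1 and TXNRD1 ran opposite (-0.831) and so did NQO1 and GCLC (-0.785). Among tested genes with a mean of at least 100, those closest in pattern were CYP1B1 (0.982) and DDB2 (0.981) for HMOX1, SLFN11 and AEBP1 (both 0.994) for NQO1, and IFI16 (0.958) and CASP4 (0.952) for NFE2L2. For KEAP1 they were WDR74 (0.921) and ACYP1 (0.912), and for GCLC ACVR1B (0.971) and SMURF1 (0.961). SKIL (0.940) was among those closest to GCLM. For TXNRD1 they were SGCD (0.985) and MARCHF4 (0.974), for TXN MYL12B (0.974) and REXO2 (0.973), and for PRDX1 ARPC3 (0.982) and TUSC3 (0.963). GSR had the weakest best matches, RAB13 (0.810) and KLHL11 (0.804). These values describe likeness over 4 groups and carry no test.

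Beyond the 10 genes, 6 lists covered the rest of the pathway and its neighbours. For the list counts below, the shares over all tested genes were 33.0% higher and 39.3% lower for DMSO against proliferating cells. Against DMSO they were 26.0% and 22.3% for palbociclib, and 1.10% and 3.42% for ruxolitinib. These shares hold for the authors' scaling and all libraries. At the same total, 5273 of 11242 genes were higher and 2970 lower with DMSO than in proliferating cells. For palbociclib against DMSO these counts were 940 and 5170. Under the authors' scaling, the former comparison gave 3660 higher and 4342 lower without A126. The latter gave 2698 and 2234 without A120. Among 10 partners and regulators of NRF2, 6 were higher and 2 lower with DMSO than in proliferating cells, with a median log2 fold change of 0.44 against -0.05 for all genes. SQSTM1, whose protein p62 binds KEAP1 and draws it into autophagy, averaged 4647 ± 401 in proliferating cells and 11203 ± 160 with DMSO (log2 fold change 1.27, adjusted p 3.50e-11). BTRC, part of a second ligase that degrades NRF2, rose by 1.11 (adjusted p 8.67e-10). CUL3 and RBX1, the ligase that KEAP1 serves, fell by 0.51 (adjusted p 4.07e-06) and by 0.61 (adjusted p 7.57e-05). BACH1, the repressor of HMOX1, named for its role and outside the rule, averaged 2410.3 in proliferating cells, and 2221, 2368 and 2048 in DMSO, palbociclib and ruxolitinib cells. It was not called between DMSO and proliferating cells (-0.11, adjusted p 0.260) or between palbociclib and DMSO (0.09, adjusted p 0.428), and was called lower with ruxolitinib than in proliferating cells (-0.23, adjusted p 0.0291).

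With palbociclib against DMSO, 4 of those 10 regulators were higher and 1 lower (median 0.12, all genes 0.02). SQSTM1 fell by 0.31 (adjusted p 0.000555), and MAFK, a small MAF partner of NRF2, rose by 0.30 (adjusted p 0.00429) and RBX1 by 0.34 (adjusted p 0.0132). At the same total, 0 were higher and 4 lower, where 940 of all 11242 genes were higher and 5170 lower. With ruxolitinib 1 of the 10 was called, MAFF, another small MAF partner, which fell by 0.34 (adjusted p 0.00740).

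A list of 26 tested further NRF2 targets was split after irradiation, with 13 higher and 8 lower with DMSO (median 0.23, all genes -0.05). The aldo-keto reductases AKR1C1 and AKR1B1 rose, AKR1C1 from 52.6 ± 10.6 to 186.5 ± 5.0 (log2 fold change 1.82, adjusted p 4.88e-08) and AKR1B1 from 2548 ± 163 to 5363 ± 315 (1.07, adjusted p 1.92e-09). CBR3, a carbonyl reductase, fell by 1.33 (adjusted p 1.00e-06). AKR1C1 has close paralogs, so its counts are uncertain.

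The same targets were again split with palbociclib against DMSO, 6 higher and 7 lower (median -0.05), and at the same total 2 were higher and 14 lower. SLC7A11, the cystine carrier that supplies glutathione synthesis, rose from 2208 ± 94.0 to 3768 ± 490 (log2 fold change 0.76, adjusted p 4.49e-06), and TALDO1, of the pentose phosphate pathway, rose by 0.60 (adjusted p 8.03e-05). AKR1C1 fell by 0.77 (adjusted p 0.00106) and AKR1B1 by 0.64 (adjusted p 3.79e-06). With ruxolitinib 2 of 26 were called, both lower: SLC7A11 by -0.35 (adjusted p 0.0317) and ABCC3, an efflux pump for conjugates, by -0.31 (adjusted p 0.0224). SLC7A11 and TALDO1 are also given against proliferating cells, outside the rule. SLC7A11 averaged 3276 in those cells, and was lower with DMSO (-0.56, adjusted p 2.74e-05) and higher with palbociclib (0.20, adjusted p 0.0491). TALDO1 averaged 2643 there, and was lower with DMSO (-0.27, adjusted p 0.0154) and higher with palbociclib (0.33, adjusted p 0.00442).

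**Figure D5:**
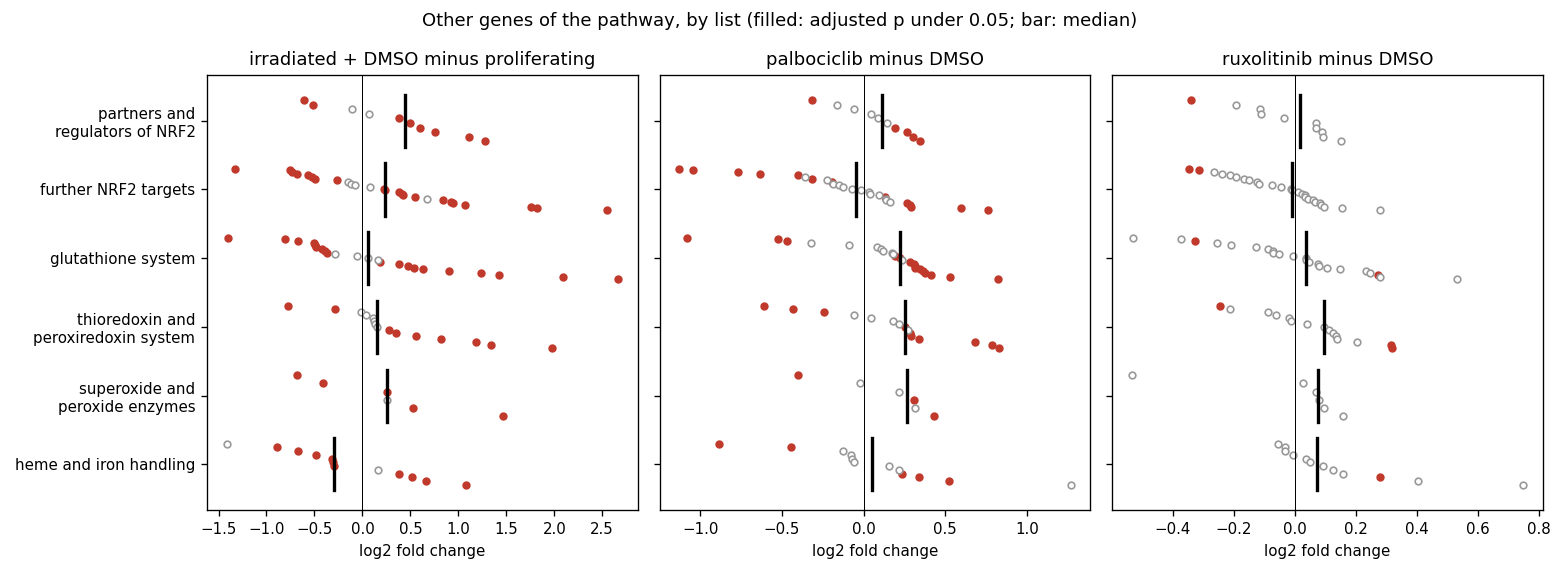
Log2 fold change (x axes) of each tested gene in 6 lists of related genes, filled where the adjusted p was under 0.05, with the list median as a bar, for DMSO against proliferating cells and each inhibitor against DMSO. Calls fall on both sides of 0 in most lists after irradiation, and few points are filled for ruxolitinib.

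Of 23 tested glutathione genes, 10 were higher and 9 lower with DMSO than in proliferating cells (median 0.06), against 12 and 4 at the same total. GGT1, which cleaves extracellular glutathione, rose from 24.9 ± 5.4 to 162 ± 22.1 (log2 fold change 2.67, adjusted p 1.31e-09), though it has near-identical copies that could share its reads. GPX3, a secreted glutathione peroxidase, rose by 2.09 (adjusted p 3.54e-09), while GGCT, of the glutathione breakdown cycle, fell by 1.41 (adjusted p 3.36e-10) and the mitochondrial glutaredoxin GLRX5 by 0.81 (adjusted p 1.79e-07). Palbociclib against DMSO gave 12 higher and 3 lower (median 0.23, all genes 0.02), but 2 higher and 4 lower at the same total and 8 higher and 3 lower without A120. The glutaredoxin GLRX rose by 0.82 (adjusted p 5.52e-06) and the glutathione transferase GSTM3 by 0.53 (adjusted p 5.13e-06), whereas GGT1 fell by 1.08 (adjusted p 0.000112) and GPX3 by 0.52 (adjusted p 0.00832). With ruxolitinib GSTM3 was higher than with DMSO (0.27, adjusted p 0.0170) and CHAC1, which degrades glutathione, lower (-0.33, adjusted p 0.0480), and 21 of 23 were not called.

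In the thioredoxin and peroxiredoxin list, 7 of 15 tested genes were higher and 2 lower with DMSO (median 0.15), against 13 higher and 1 lower at the same total and 9 and 1 without A126. TXNIP, which binds and inhibits thioredoxin, rose from 2470.4 ± 68.7 to 9705 ± 130.4 (log2 fold change 1.97, adjusted p 1.36e-14), and the selenoprotein SELENOW rose by 1.34 (adjusted p 3.48e-09). MSRA, a methionine sulfoxide reductase, fell by 0.77 (adjusted p 5.15e-06), and MSRB1, a related enzyme, by 0.29 (adjusted p 0.0203). With palbociclib 7 were higher and 3 lower than with DMSO (median 0.25), and 3 higher and 4 lower at the same total. PRDX6 rose from 12171 ± 417 to 21056 ± 1829 (log2 fold change 0.79, adjusted p 6.74e-08) and TXNRD3 by 0.83 (adjusted p 3.36e-05), while TXNIP fell by 0.43 (adjusted p 1.48e-06) and SESN1, a p53 target that helps reduce peroxiredoxins, by 0.61 (adjusted p 3.45e-05). Under ruxolitinib PRDX6 (0.32, adjusted p 0.00591) and SESN1 (0.31, adjusted p 0.0488) were higher than with DMSO and TXNIP was lower (-0.24, adjusted p 0.00356).

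Among 6 superoxide and peroxide enzymes, 3 were higher and 2 lower with DMSO (median 0.26). Mitochondrial SOD2 rose from 1712 ± 98.4 to 4729 ± 398 (log2 fold change 1.46, adjusted p 7.78e-12) and catalase, CAT, by 0.53 (adjusted p 3.62e-06), whereas extracellular SOD3 fell by 0.68 (adjusted p 0.00728) and the matrix peroxidase PXDN by 0.41 (adjusted p 0.000164). With palbociclib SOD2 was lower than with DMSO (-0.40, adjusted p 7.66e-05), and PXDN (0.43, adjusted p 0.000261) and SOD1 (0.31, adjusted p 0.00487) were higher. At the same total, 1 of the 6 was higher and 2 lower with palbociclib, in place of 2 and 1. With ruxolitinib limma, edgeR and DESeq2 each called 0 of the 6, and 1 had an unadjusted p under 0.05 in limma, with log2 fold changes from -0.53 to 0.16.

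Heme and iron handling, the setting in which HMOX1 works, gave 4 higher and 6 lower of 12 with DMSO (median -0.30), and 5 and 3 at the same total. ALAS1, the first enzyme of heme synthesis, rose by 0.67 (adjusted p 1.33e-07) and NCOA4, which delivers ferritin for breakdown, by 0.52 (adjusted p 9.83e-07), while the transferrin receptor TFRC fell by 0.67 (adjusted p 7.45e-07). FTL and FTH1, the ferritin subunits that store iron, belong to the list of further targets and are named outside the rule. FTL read 18895 in proliferating cells and 33853 with DMSO (0.85, adjusted p 3.41e-08), and FTH1 17530 and 25494 (0.54, adjusted p 6.92e-06). With palbociclib both were lower than with DMSO, FTL by -0.31 (adjusted p 0.00218) and FTH1 by -0.19 (adjusted p 0.0402). Palbociclib cells were higher than DMSO cells in BLVRA, which reduces the biliverdin that HMOX1 makes (0.53, adjusted p 0.000818), and in FECH, which inserts iron into heme (0.34, adjusted p 0.00323), and lower in TFRC (-0.44, adjusted p 0.000168). In all 3 were higher and 2 lower with palbociclib, and 1 and 6 at the same total. TFRC was higher with ruxolitinib than with DMSO (0.28, adjusted p 0.0440), the only call among the 12 genes there.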

How the data were processed

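The deposited values are normalized counts, a linear signal per Entrez gene in 12 columns, as the authors made them. Per the submitters' processing notes, Trimmomatic 0.38.1, HISAT2 2.2.1, featureCounts 2.0.3 and DESeq2 2.11.40.8 were used with hg38. The annotation and the strand setting of the counting are not given in the sources used here. All 160380 values above 0 were whole multiples of 1 read's worth in their column (100%, tolerance 0.01), so reads were recovered. The table ended at Entrez gene 140467. The 23.9% of 20052 RefSeq protein-coding genes numbered above it were not analysed here, among them SRXN1, GPX8 and MSRB3 of the lists.

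Columns name the group and library but no replicate number, and the labels name no batch. limma 3.58.1 (R 4.3.3) was fitted to log2(normalized count + 1) with 4 group means over 12 libraries and a mean trend, on 11242 genes with a mean of at least 10, with Benjamini-Hochberg adjustment and a threshold of 0.05. Ratios within libraries were compared by exact permutation. Alternatives were other pseudocounts, filters and scalings, no trend, 2 groups only, each library left out, and edgeR 4.0.16 and DESeq2 1.42.0 on recovered reads. The members and lists were chosen with earlier results of these data known. In each list and comparison, the text names, by size, up to 2 called increases and 2 called decreases whose higher group averaged 100 or more. For each member the 2 tested genes with the highest r were named. Gene positions and promoter starts come from RefSeq, and gene strands and transcript lengths from GENCODE v44. A few genes that these rules would name are not reported here.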

Additional observations from a re-analysis of the deposited data

How the results depend on the processing

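Each of the 60 differences was recomputed under 23 alternatives. Of the 29 called, 16 kept their call and direction under every alternative run, among them HMOX1, NQO1 and GCLC for DMSO against proliferating cells, and none changed direction. Of the 31 not called, 15 changed direction under at least 1 alternative. At the same total these were, for DMSO against proliferating cells, KEAP1 (0.20), GCLM (0.092), TXNRD1 (0.10) and PRDX1 (0.13); for palbociclib against ruxolitinib, NQO1 (-0.13), GCLC (-0.15) and GCLM (-0.14); for ruxolitinib against proliferating cells, KEAP1 (0.15) and PRDX1 (0.17); and TXN for ruxolitinib against DMSO (-0.0085). At the same upper quartile the first 9 of these, in that order, were 0.12, 0.016, 0.024, 0.058, -0.0052, -0.025, -0.017, 0.11 and 0.13, and GSR for palbociclib against proliferating cells was 0.0013. Under quantile normalization KEAP1 (0.12), GCLM (0.021) and PRDX1 (0.088) changed direction for DMSO against proliferating cells, GCLC for palbociclib against ruxolitinib (-0.029), GSR for palbociclib against proliferating cells (0.033), and KEAP1 (0.12) and PRDX1 (0.12) for ruxolitinib against proliferating cells. With edgeR, KEAP1 was 0.030 for DMSO and 0.0068 for ruxolitinib against proliferating cells, and PRDX1 0.029 for the latter. With DESeq2 these were 0.031, 0.0056 and 0.028. Called in the new direction at the same total were NQO1 (adjusted p 0.0308) and GCLC (adjusted p 0.0330) for palbociclib against ruxolitinib. PRDX1 for ruxolitinib against proliferating cells was called there too (adjusted p 0.0250). Scaling was the choice that differed in the first 3 sets, and the cause was not tested further.

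Leaving out each library in turn gave, for DMSO against proliferating cells, -0.016 to 0.027 for NFE2L2, -0.085 to 0.047 for KEAP1 and -0.036 to 0.095 for GSR. For ruxolitinib against DMSO it gave -0.061 to 0.018 for KEAP1, -0.016 to 0.045 for TXN and -0.024 to 0.11 for GSR, and for KEAP1 with ruxolitinib against proliferating cells -0.11 to 0.020. The number of the 10 genes called for DMSO against proliferating cells was 3, and 6 under each of the 3 other scalings. Leaving out libraries gave 3 to 5, with 5 without A126, where 3660 of all genes were higher and 4342 lower. For palbociclib against ruxolitinib 4 became 7 at the same total, and for palbociclib against proliferating cells 8 became 4 under quantile normalization. Over all genes, the first went from 2561 higher and 1983 lower to 847 and 4531. The second went from 3962 and 4336 to 4432 and 3663. For ruxolitinib against DMSO 2 became 5 when only those groups were fitted, and leaving out libraries gave 1 to 2, with 1 without A117 or A122. Over all genes, 124 higher and 384 lower became 843 and 998 with only those groups fitted. They became 61 and 233 without A117, and 41 and 220 without A122. The wider lists were recomputed under the same alternatives after the data were seen. No paired analysis was possible because the columns carry no replicate number, so the planned replicate block was not run.

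The lowest count of the 10 genes in any library was 155 reads, for HMOX1. Called differences were 0.20 or more in size on the log2 scale, and those not called 0.25 or less.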
